A study of Mus musculus with 8 samples.

Results

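Mki67, Birc5 and Rrm2 were followed at the level of single transcripts in 8 sections of hemispheres bearing a tumour of GL261, a mouse glioma line. These are the 3 cell cycle genes, by name, among the 100 genes of the panel, and every molecule deposited under the 3 names entered the tally. All mice had been implanted with GL261, had 4 intracranial treatments and were taken on day 21. There were 2 sections for each of 4 treatments: CpG-STAT3ASO with anti-PD1 (the combination), CpG-STAT3ASO alone, anti-PD1 alone, and PBS. CpG-STAT3ASO joins a CpG oligonucleotide, a ligand of the endosomal receptor TLR9, to an antisense oligonucleotide against Stat3, and anti-PD1 is an antibody against the T cell checkpoint receptor PD-1. The labels do not state that sections came from separate animals, so p values measure only the spread between these sections. The sources used here give neither the section level nor the pixel size.

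The protein of Mki67, Ki-67, coats mitotic chromosomes and is present in cycling but not in resting cells. Birc5 encodes survivin, a subunit of the chromosomal passenger complex that directs chromosome segregation, and it is also known as an inhibitor of apoptosis and as a transcriptional target of STAT3. Rrm2 encodes the small subunit of ribonucleotide reductase, which makes the deoxynucleotides used in DNA replication and peaks in S phase. The question was whether Birc5 differed from Mki67 and Rrm2 within proliferating tissue where the STAT3 antisense agent had been given.

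The promoters of the 3 genes are printed because shared cell cycle elements and STAT sites lie in this kind of window. They are RefSeq sequences of mouse build GRCm38.p6, each 300 bases long, 5′ to 3′ on the strand of the gene. Those of Birc5 and Rrm2 hold 250 bases before and 50 after the annotated gene start. The annotated start of Mki67, at 135716450, also lies within its window, but further from the downstream end than 50 bases. Mki67 lies at chr7:135716330-135716629 on the minus strand, Birc5 at chr11:117848987-117849286 on the plus strand and Rrm2 at chr12:24708004-24708303 on the plus strand. Capitals mark the matches to the searched letters on either strand.
Mki67: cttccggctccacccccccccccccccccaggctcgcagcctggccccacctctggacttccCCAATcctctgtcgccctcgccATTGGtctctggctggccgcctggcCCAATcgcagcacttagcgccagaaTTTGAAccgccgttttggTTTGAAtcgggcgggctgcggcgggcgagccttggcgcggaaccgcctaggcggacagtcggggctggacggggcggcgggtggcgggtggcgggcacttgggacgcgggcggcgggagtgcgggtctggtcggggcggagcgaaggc
Birc5: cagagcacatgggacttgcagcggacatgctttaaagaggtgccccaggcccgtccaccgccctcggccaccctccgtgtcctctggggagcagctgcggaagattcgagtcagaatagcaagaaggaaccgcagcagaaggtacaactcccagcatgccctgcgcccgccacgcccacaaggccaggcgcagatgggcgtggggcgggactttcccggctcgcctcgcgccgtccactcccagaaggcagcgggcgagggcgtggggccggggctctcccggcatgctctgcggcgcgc
Rrm2: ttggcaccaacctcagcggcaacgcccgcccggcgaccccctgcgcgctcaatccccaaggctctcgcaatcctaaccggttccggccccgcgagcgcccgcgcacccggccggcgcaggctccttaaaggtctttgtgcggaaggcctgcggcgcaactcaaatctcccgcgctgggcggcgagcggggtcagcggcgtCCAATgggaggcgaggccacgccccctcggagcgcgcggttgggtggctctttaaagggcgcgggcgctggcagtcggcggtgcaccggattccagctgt
The letters searched were CCAAT (the CCAAT box), TTTGAA (the cell cycle homology region) and TTCNNNGAA (a STAT site), and no matches overlapped. CCAAT had 3 matches in the Mki67 window, 0 in the Birc5 window and 1 in the Rrm2 window, and 37.4% of 32851 promoters of the same length held it. TTTGAA had 2 matches in the Mki67 window and 0 in the other windows, and 17.9% of the promoters held it. TTCNNNGAA had 0 matches in all 3 windows, and 8.30% of the promoters held it. A match is a string of letters and not a measured site, and no match says only that the letters are not in this window.

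Depth ran between 1669939 and 6995401 molecules per section, and 28 codes read here as false-positive codes took 0.106 to 0.306% of them. Square bins of 360 pixels with at least 20 molecules counted as tissue, and there were 2155 to 2405 of them in a section. Of a list of 18 proliferation genes, Mki67, Birc5 and Rrm2 were the 3 measured. None of the markers listed here for neurons, oligodendrocytes, astrocytes or endothelium is on the panel. The brain tissue of the labels could thus not be checked by them. Of the marker lists for other cells, 2 of 7 T cell genes (Cd3d and Cd8a) and 5 of 8 macrophage genes (Adgre1, Cd68, Csf1r, Cd14 and Mrc1) were measured, and none of the 7 was at 0 in any section. Treatment and position on the slide cannot be told apart.

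Over whole sections, all 3 genes were lower with CpG-STAT3ASO, but by very unequal amounts. Birc5 had 1596 and 2211 CPM (molecules of a gene scaled to a section total of 1000000 gene molecules) with the combination and 2556 and 1751 CPM with CpG-STAT3ASO alone, against 13903 and 24329 CPM with anti-PD1 and 15662 and 13444 CPM with PBS. Every section given CpG-STAT3ASO lay below every other section by a wide gap. Mki67 had 7676 and 10989 CPM with the combination and 12206 and 9489 CPM with CpG-STAT3ASO alone, against 48900 and 80414 CPM with anti-PD1 and 49378 and 42288 CPM with PBS. Again the groups did not overlap. Rrm2 had 3555 and 4233 CPM with the combination and 4485 and 4235 CPM with CpG-STAT3ASO alone, against 8687 and 15492 CPM with anti-PD1 and 7034 and 5544 CPM with PBS. Here too the 4 lower values were those of the sections given CpG-STAT3ASO, but the nearest PBS section was little above them.

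Averaged over anti-PD1, CpG-STAT3ASO lowered Birc5 by a log2 difference of -3.03 (SE 0.335), Mki67 by -2.43 (SE 0.377) and Rrm2 by -1.05 (SE 0.328). The adjusted p values by limma over all 100 genes were 2.73e-06, 9.25e-05 and 0.0161. All 3 were called lower, where 8.0% of the genes were, and the median difference of all genes was 0.63. Per tissue bin the differences were -4.45, -3.84 and -2.46, beside a median of -0.77, and with median-of-ratios size factors -3.72, -3.11 and -1.73, beside -0.044, all 3 genes called each time. Fewer cells of a type and less RNA per cell cannot be told apart in these sums. Rrm2 was called lower in the combination against anti-PD1 (-1.58, adjusted p = 0.0235, limma), where 5.0% of genes were, but not in the combination against PBS (-0.69, adjusted p = 0.301) or in CpG-STAT3ASO against PBS (-0.52, adjusted p = 0.444), with 4.0% of genes called lower in each. The call against anti-PD1 was lost under 3 of 16 alternative settings, among them without anti-PD1 replicate 2 (-1.16) or combination replicate 1 (-1.45). The average call of Rrm2 was lost without PBS replicate 1 (-0.96, adjusted p = 0.0534), anti-PD1 replicate 2 (-0.84, adjusted p = 0.0721), CpG-STAT3ASO replicate 1 (-1.07, adjusted p = 0.0627) or CpG-STAT3ASO replicate 2 (-1.03, adjusted p = 0.0615).

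**Figure D1:**
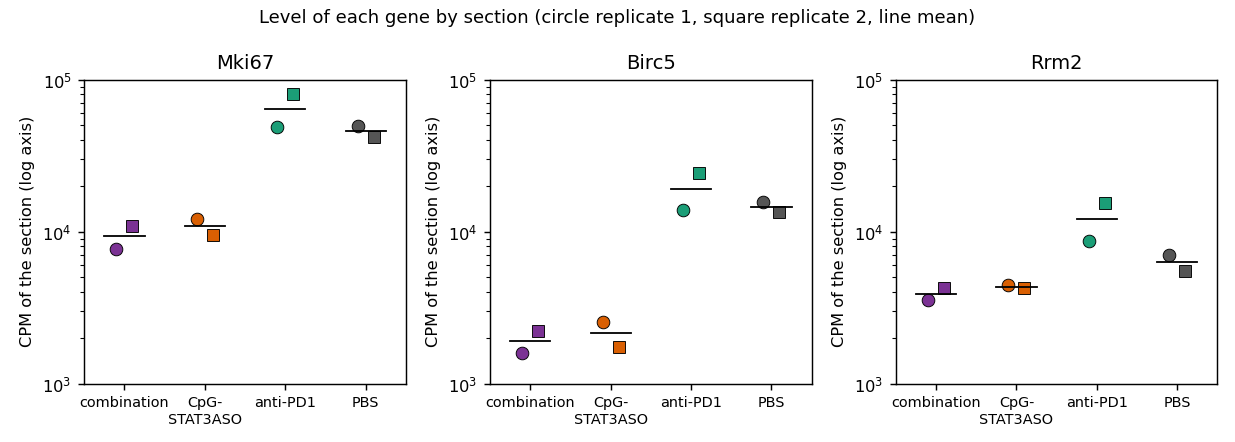
Level of Mki67, Birc5 and Rrm2 in each section, in CPM on a log axis, with a circle for replicate 1, a square for replicate 2 and a line at the group mean. The combination and CpG-STAT3ASO sections lie below the anti-PD1 and PBS sections for all 3 genes, by the largest gap for Birc5 (1596 to 2556 against 13444 to 24329 CPM) and the smallest for Rrm2 (3555 to 4485 against 5544 to 15492 CPM).

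Proliferating tissue was set by Mki67 alone, as bins with at least 40 Mki67 molecules. Such bins numbered 79 and 358 with the combination and 114 and 185 with CpG-STAT3ASO, against 901 and 1155 with anti-PD1 and 818 and 1048 with PBS. They made up 3.63 to 14.9% of the tissue bins in the sections given CpG-STAT3ASO and 36.8 to 49.0% in the others. Their layout differed as well. Touching bins formed 48 to 98 patches with CpG-STAT3ASO, of which the largest held 6.33 to 20% of the proliferating bins, against 7 to 16 patches without it, of which the largest held 98.2 to 98.5%.

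**Figure D2:**
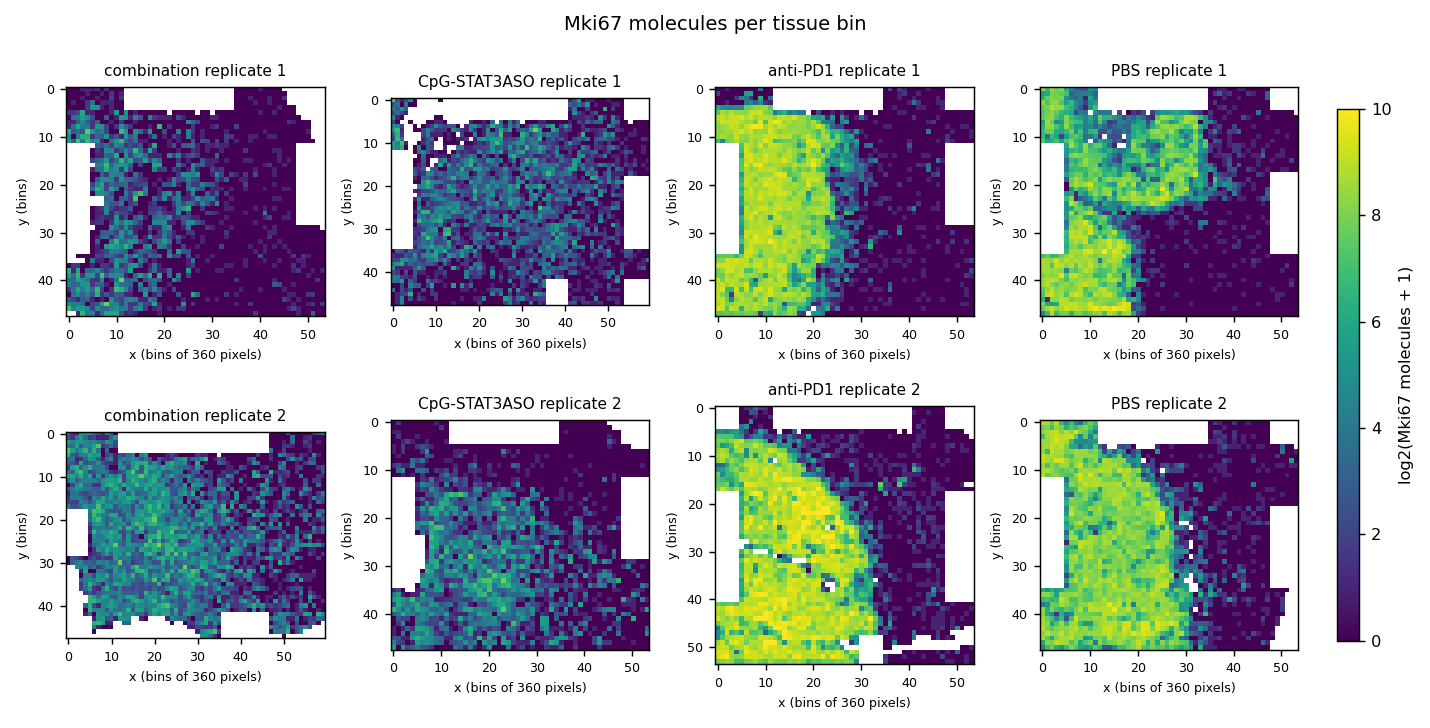
Mki67 molecules per tissue bin of 360 pixels in each section, as log2 of the count plus 1, with the columns combination, CpG-STAT3ASO, anti-PD1 and PBS and white where there was no tissue bin. Bins rich in Mki67 form a broad mass in the anti-PD1 and PBS sections (largest patch 98.2 to 98.5% of the proliferating bins) and are scattered in the others (6.33 to 20%).

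The share of each gene that lay in proliferating bins was also taken. Mki67 chose these bins, which raises its own share, so its share cannot be set against those of Birc5 and Rrm2. With CpG-STAT3ASO, 38.4 to 57.8% of the Mki67 molecules of a section lay in proliferating bins, as did 27.4 to 43.7% of the Birc5 and 25.7 to 45.1% of the Rrm2 molecules. Without it the shares were 97.4 to 99.4% for Mki67, 96.7 to 99.2% for Birc5 and 94.5 to 98.5% for Rrm2. Tissue bins with no Mki67 molecule still held 0.303 to 0.420 Birc5 and 0.509 to 0.649 Rrm2 molecules per bin with CpG-STAT3ASO, and 0.238 to 0.375 and 0.428 to 0.596 without it. A single false-positive code had 0.0656 to 0.0899 and 0.0802 to 0.112 molecules per such bin. These low levels of Birc5 and Rrm2 thus stood above the codes and overlapped between sections with and without CpG-STAT3ASO.

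Ratios of molecules within a section need no scaling to its depth. Each gene's probes have their own efficiency, so that only differences of a ratio between sections are read here. Whole-section ratios also include the low levels of Birc5 and Rrm2 in bins without Mki67. Over whole sections, Birc5 per Mki67 molecule was 0.208 and 0.201 with the combination and 0.209 and 0.184 with CpG-STAT3ASO, against 0.284 and 0.303 with anti-PD1 and 0.317 and 0.318 with PBS. The 4 sections given CpG-STAT3ASO lay together and below the others. They averaged 0.201 ± 0.0114, against 0.305 ± 0.0158 in the others (SD, n = 4 each, 1.52-fold lower, exact permutation test, two-sided, p = 0.0286, which is the lowest value possible with 70 assignments, adjusted p = 0.0343 over 12 ratio tests). In limma's fit of every gene over Mki67 the same difference was -0.61 (SE 0.304) and did not pass (adjusted p = 0.0757). In that fit 91 of 99 genes were called higher, or 91.9%, and 0.0% lower, with 91 at unadjusted p under 0.05 and a median difference of 3.09. Birc5 stood second from the bottom of the 99 genes, above Gpnmb, which encodes a transmembrane glycoprotein.

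Rrm2 moved the other way relative to Mki67. Rrm2 per Mki67 molecule was 0.463 and 0.385 with the combination and 0.367 and 0.446 with CpG-STAT3ASO, against 0.178 and 0.193 with anti-PD1 and 0.142 and 0.131 with PBS. The means were 0.416 ± 0.0463 and 0.161 ± 0.0290 (SD, n = 4 each, 2.60-fold higher, exact permutation p = 0.0286, adjusted p = 0.0343), and limma called the difference (1.38, SE 0.309, adjusted p = 0.00131). It was smaller than the median of 3.09 over all genes. Birc5 per Rrm2 molecule therefore differed most. It was 0.449 and 0.522 with the combination and 0.570 and 0.413 with CpG-STAT3ASO, against 1.60 and 1.57 with anti-PD1 and 2.23 and 2.42 with PBS. The difference was -1.98 by limma (adjusted p = 0.000314), and Birc5 was among the 3.03% of genes called lower relative to Rrm2.

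Within proliferating bins the ratio of Birc5 to Mki67 differed more than over whole sections. Birc5 per Mki67 molecule was 0.139 and 0.152 with the combination and 0.149 and 0.138 with CpG-STAT3ASO, against 0.284 and 0.302 with anti-PD1 and 0.315 and 0.317 with PBS. Sections of a group lay close together and the groups with and without CpG-STAT3ASO were far apart. The means were 0.144 ± 0.00716 and 0.304 ± 0.0151 (SD, n = 4 each, 2.11-fold lower, exact permutation p = 0.0286, adjusted p = 0.0343). By limma the difference was -1.08 (SE 0.242, adjusted p = 0.00508). Of 97 genes tested over Mki67 there, 2 were called lower, or 2.06%, namely Birc5 and Gpnmb (-2.12, adjusted p = 0.00187). Another 45 genes, or 46.4%, were called higher, and the median difference was 1.41.

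Rrm2 per Mki67 molecule in proliferating bins was 0.337 and 0.278 with the combination and 0.245 and 0.366 with CpG-STAT3ASO, against 0.175 and 0.191 with anti-PD1 and 0.138 and 0.128 with PBS. The means were 0.307 ± 0.0547 and 0.158 ± 0.0295 (SD, n = 4 each, 1.94-fold higher, exact permutation p = 0.0286, adjusted p = 0.0343). Limma called Rrm2 higher relative to Mki67 (0.96, SE 0.265, adjusted p = 0.0150), below the median gene. Birc5 per Rrm2 molecule was 0.413 and 0.546 with the combination and 0.608 and 0.376 with CpG-STAT3ASO, against 1.63 and 1.58 with anti-PD1 and 2.28 and 2.47 with PBS. This was a 4.10-fold lower ratio (limma -2.03, SE 0.286, adjusted p = 0.00135), with 8.25% of 97 genes called lower relative to Rrm2. Birc5 was thus lower in proliferating bins whether Mki67 or Rrm2 was the denominator, and Rrm2 was not lower than Mki67.

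**Figure D3:**
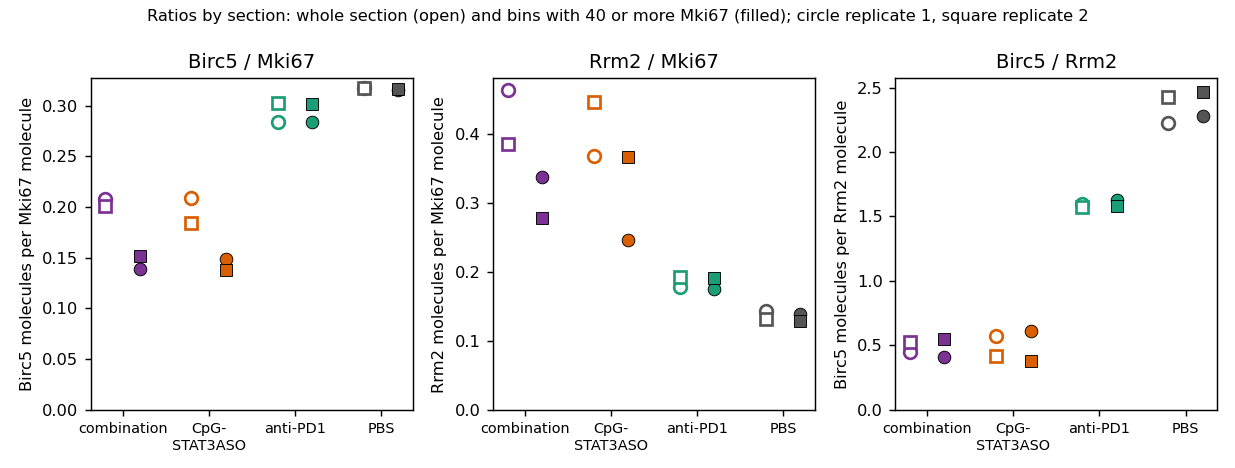
Ratios of the 3 genes in each section, for the whole section (open symbols) and for bins with at least 40 Mki67 molecules (filled symbols), with circles for replicate 1 and squares for replicate 2. Birc5 per Mki67 lies at 0.138 to 0.152 in proliferating bins of the combination and CpG-STAT3ASO sections and at 0.284 to 0.317 in those of the anti-PD1 and PBS sections, while Rrm2 per Mki67 is higher with CpG-STAT3ASO (0.245 to 0.366 against 0.128 to 0.191).

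Choosing bins by Mki67 favours bins where Mki67 happens to be high, so the choice was repeated in other ways, some of them added after the data were seen. With bins chosen by a random part of the Mki67 molecules and ratios taken from the rest, Birc5 over Mki67 was -1.03 (adjusted p = 0.00649, limma) and Rrm2 over Mki67 0.94 (adjusted p = 0.0166). With bins chosen by at least 10 Rrm2 molecules, Birc5 over Mki67 was -0.74 (adjusted p = 0.0136). With bins chosen by at least 10 Birc5 molecules, which favours high Birc5, it was -0.49 and no longer passed (adjusted p = 0.134), while Birc5 over Rrm2 remained called (-1.82, adjusted p = 0.00201).

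Each treatment was then set against another in proliferating bins. Birc5 over Mki67 was lower with CpG-STAT3ASO than with PBS (-1.14, adjusted p = 0.0316, limma) and with the combination than with PBS (-1.12, adjusted p = 0.0347), where 34.0% of genes were called in each. The combination against anti-PD1 gave -1.01 and just missed the threshold (adjusted p = 0.0504, with 32.0% called). Rrm2 over Mki67 was higher with CpG-STAT3ASO than with PBS (1.17, adjusted p = 0.0386) and with the combination than with PBS (1.20, adjusted p = 0.0372), but did not pass in the combination against anti-PD1 (0.75, adjusted p = 0.146). Birc5 over Rrm2 passed in all 3, at -2.31 (adjusted p = 0.00947, with 13.4% of genes called), -2.32 (adjusted p = 0.0110, 9.28%) and -1.76 (adjusted p = 0.0180, 24.7%). Calls between 2 sections and 2 sections were fragile, although their directions held. Of 24 alternative settings, 12 lost the call of Birc5 over Mki67 for CpG-STAT3ASO against PBS and 15 that for the combination. For Rrm2 over Mki67 against PBS 14 and 13 of 24 lost it. Birc5 over Rrm2 lost its 3 calls under 3, 2 and 5 of 24, in the order above. Some of these losses follow. Birc5 over Mki67 against PBS was lost for CpG-STAT3ASO without either PBS or either CpG-STAT3ASO section (adjusted p = 0.0700 to 0.156, limma) and for the combination without any of the 8 sections (0.0501 to 0.131). Rrm2 over Mki67 against PBS was lost for CpG-STAT3ASO without any PBS, anti-PD1 or CpG-STAT3ASO section (0.0521 to 0.227) and for the combination without any PBS, anti-PD1 or combination section (0.0514 to 0.147). Birc5 over Rrm2 was lost for CpG-STAT3ASO against PBS without PBS replicate 2 or either CpG-STAT3ASO section (0.0612 to 0.128), for the combination against PBS without PBS replicate 2 (0.101) and for the combination against anti-PD1 without anti-PD1 replicate 2 (0.0927). With only the groups compared in the fit, CpG-STAT3ASO against PBS in Birc5 over Rrm2 was the call that remained. Over the matched Mki67 classes described next, Birc5 over Mki67 against PBS was lost for CpG-STAT3ASO (-1.30, adjusted p = 0.0521, limma) and for the combination (-1.27, adjusted p = 0.0599), as was Rrm2 over Mki67 (0.98, adjusted p = 0.154, and 1.08, adjusted p = 0.0976). Birc5 over Rrm2 stayed called there against PBS for CpG-STAT3ASO (-2.28, adjusted p = 0.0154) and the combination (-2.35, adjusted p = 0.0128), and was lost for the combination against anti-PD1 (-1.39, adjusted p = 0.155). That call was also lost in bins matched on Mki67 and total molecules (-1.38, adjusted p = 0.174) and with the mean of bins without Mki67 subtracted (-1.78, adjusted p = 0.0662).

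Anti-PD1 was not seen to move the ratios. Against PBS it gave -0.11 for Birc5 over Mki67 (95% interval -0.89 to 0.67), 0.45 for Rrm2 over Mki67 (-0.40 to 1.31) and -0.56 for Birc5 over Rrm2 (-1.49 to 0.36). The combination against CpG-STAT3ASO gave 0.02 (-0.76 to 0.80), 0.03 (-0.82 to 0.88) and -0.01 (-0.94 to 0.91). In both comparisons 0.0% of genes were called by limma over Mki67 or over Rrm2, with 3 of 97 at unadjusted p under 0.05 in each fit except 6 for anti-PD1 against PBS over Rrm2. The intervals of Rrm2 over Mki67 thus reach 1.31 and 0.88, near the average difference of 0.96 with CpG-STAT3ASO. By section, anti-PD1 did not overlap with PBS in any of the ratios, as in Rrm2 per Mki67 (0.175 and 0.191 against 0.138 and 0.128). Over the matched Mki67 classes described next, anti-PD1 against PBS gave 0.67 for Rrm2 over Mki67 (adjusted p = 0.956, limma). Birc5 over Rrm2 stood at -0.96 there (adjusted p = 0.587, limma).

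Proliferating bins with and without CpG-STAT3ASO were not equally rich in Mki67. They held 68.5 to 74.3 Mki67 molecules per bin with it and 246 to 440 without it, and 1149 to 2301 against 3983 to 6215 molecules of all genes. Bins were therefore compared at the same Mki67. Among bins with 40 to 79 Mki67 molecules, of which every section had at least 54, Birc5 averaged 8.41 and 8.70 molecules per bin with the combination and 8.76 and 7.79 with CpG-STAT3ASO, against 13.9 and 16.5 with anti-PD1 and 20.2 and 21.4 with PBS. Rrm2 in the same bins averaged 21.7 and 18.0 with the combination and 14.1 and 22.5 with CpG-STAT3ASO, against 14.1 and 14.6 with anti-PD1 and 8.34 and 10.1 with PBS. At like Mki67, bins with CpG-STAT3ASO thus held less Birc5 in every section, while Rrm2 overlapped with the anti-PD1 sections.

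Birc5 per Mki67 in these bins was 0.142 to 0.162 with CpG-STAT3ASO and 0.244 to 0.368 without it. With at least 80 and under 160 Mki67 molecules it was 0.130 to 0.143 against 0.315 to 0.376, and with 20 to 39 it was 0.175 to 0.195 against 0.240 to 0.354. In bins with 1 to 4 Mki67 molecules, at levels close to those of bins without Mki67, the ratio was 0.367 to 0.533 against 0.298 to 0.402 and the groups overlapped. The gap in Birc5 per Mki67 was therefore seen from 20 Mki67 molecules per bin upward. Rrm2 per Mki67 was 0.258 to 0.410 against 0.141 to 0.251 with 40 to 79 Mki67 molecules and 0.216 to 0.305 against 0.120 to 0.214 with at least 80 and under 160. Bins with 160 or more numbered 2 to 10 with CpG-STAT3ASO and 512 to 984 without it, too few with it for a comparison.

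**Figure D4:**
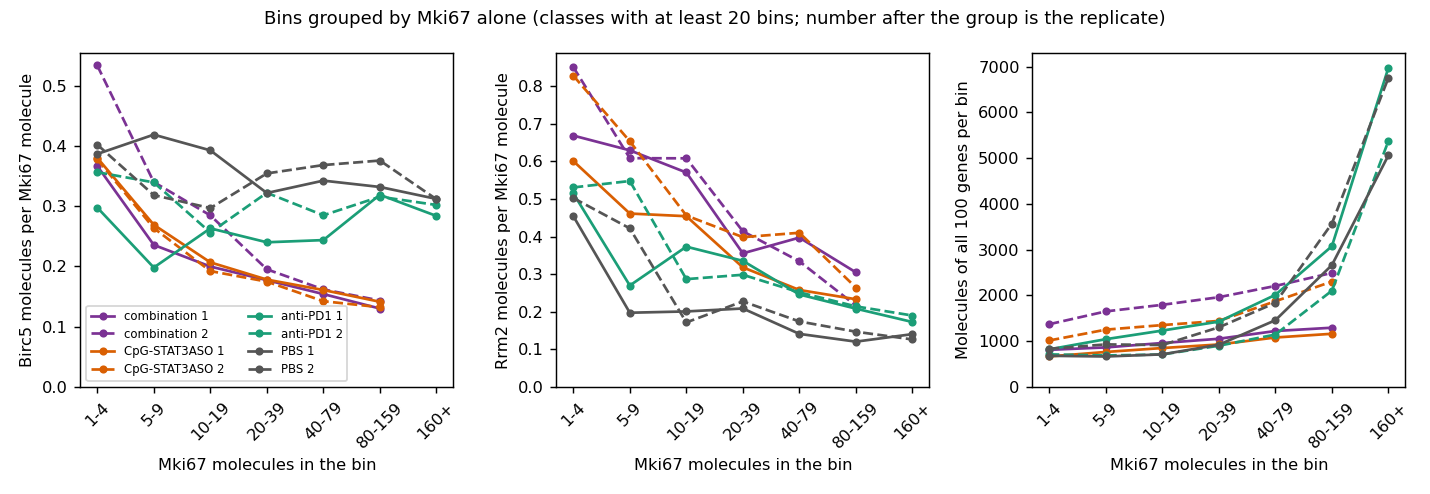
Birc5 per Mki67 (left), Rrm2 per Mki67 (middle) and molecules of all 100 genes per bin (right) against the number of Mki67 molecules in the 360-pixel bin, with a line for each section (solid for replicate 1, dashed for replicate 2) and classes of at least 20 bins. From 20 Mki67 molecules upward the combination and CpG-STAT3ASO lines for Birc5 lie below all others (0.142 to 0.162 against 0.244 to 0.368 at 40 to 79), and those for Rrm2 lie mostly above.

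Averaged over these classes of 40 to 79 and of at least 80 and under 160, CpG-STAT3ASO lowered Birc5 over Mki67 by -1.14 (SE 0.229, adjusted p = 0.0151, limma over 94 genes), with 3.19% of genes called lower. The 3 genes were Gpnmb, the stem cell antigen gene Ly6a and Birc5. Rrm2 over Mki67 stood at 0.70 (adjusted p = 0.0828) and did not pass, where 17.0% of genes were called higher and the median difference was 0.31. Birc5 over Rrm2 was -1.84 (adjusted p = 0.00588), with 6.38% called lower. In bins matched also on total molecules (40 to 79 Mki67 and at least 500 but under 2000 molecules), Birc5 over Mki67 was -0.90 (adjusted p = 0.00918) and Rrm2 over Mki67 0.78 (adjusted p = 0.0310).

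Other genes moved in the same bins. At 40 to 79 Mki67 molecules, the macrophage receptor gene Adgre1 averaged 14.1 to 18.4 molecules per bin with CpG-STAT3ASO and 0.931 to 2.69 without it, and Gpnmb 14.2 to 44.7 against 65.4 to 165. Over all proliferating bins the 5 macrophage markers summed to 113 to 156 molecules per bin against 39.4 to 72.0, and the 2 T cell markers to 0.693 to 16.4 against 1.23 to 4.43. Of the 5 macrophage markers, 3 were called higher over Mki67 in proliferating bins, namely Adgre1 (4.75, adjusted p = 3.17e-05, limma), the scavenger receptor gene Cd68 (3.96, adjusted p = 3.85e-05) and the CSF1 receptor gene Csf1r (3.42, adjusted p = 0.000140), and they stayed called over the matched classes (3.22, 2.60 and 1.56). The LPS co-receptor gene Cd14 (0.91, adjusted p = 0.124) and the mannose receptor gene Mrc1 (0.82, adjusted p = 0.276) did not pass, and stood at 0.23 and -0.16 over the matched classes. Of the T cell markers over Mki67 in proliferating bins, Cd8a was called higher (2.87, adjusted p = 0.0150, limma) and Cd3d did not pass (2.16, adjusted p = 0.0585). Over the matched classes neither Cd8a (0.71, adjusted p = 0.824) nor Cd3d (0.64, adjusted p = 0.771) passed. Markers of dendritic cells (4 measured) summed to 3.81 to 11.9 molecules per proliferating bin with CpG-STAT3ASO, against 19.2 to 38.6 without it, with no overlap. Molecules of all genes per proliferating bin were fewer too, at 1149 to 2301 against 3983 to 6215. By CPM over whole sections the dendritic cell markers overlapped (3589 to 5477 against 4328 to 5782). Those of NK cells (2 measured) summed to 1.19 to 8.17 against 3.02 to 7.0, and the 1 measured marker of resident microglia stood at 12.2 to 16.0 against 12.2 to 101, both with overlap. The part of these cells in the Birc5 ratio was not tested. Proliferating bins with no Cd3d or Cd8a molecule numbered 45 to 94 per section with CpG-STAT3ASO and 314 to 666 without it. In them Birc5 over Mki67 was as far apart (-1.05, adjusted p = 0.0183, limma), as was Rrm2 over Mki67 (1.08, adjusted p = 0.0202). Cd3d was sparse, with 8 molecules in the 114 proliferating bins of CpG-STAT3ASO replicate 1. A bin with neither transcript may thus still have held T cells.

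In small bins of 90 pixels, the difference could be read as how many bins held any Birc5 at all. Among small bins with 10 to 19 Mki67 molecules, Birc5 averaged 1.98 and 1.69 molecules with the combination and 1.80 and 1.55 with CpG-STAT3ASO, against 4.99 and 5.21 with anti-PD1 and 4.91 and 5.19 with PBS. The groups with and without CpG-STAT3ASO were far apart. Birc5 was present in 77.9 and 72.9% of these bins with the combination and in 71.3 and 71.0% with CpG-STAT3ASO, against 96.2 and 95.7% with anti-PD1 and 94.9 and 97.1% with PBS. At least 5 Birc5 molecules were found in 4.88 to 10.5% of them with CpG-STAT3ASO, against 47.3 to 53.1% without it. Most small bins with CpG-STAT3ASO thus still held Birc5, in lower number.

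Rrm2 in the same small bins averaged 4.04 and 3.54 molecules with the combination and 2.18 and 3.17 with CpG-STAT3ASO, against 3.56 and 4.13 with anti-PD1 and 2.40 and 2.41 with PBS. Here the groups overlapped. Rrm2 was present in 73.5 and 75.1% of these bins with the combination and in 52.5 and 63.7% with CpG-STAT3ASO, against 85.6 and 87.6% with anti-PD1 and 69.6 and 77.8% with PBS, again with overlap. With 20 to 39 Mki67 molecules it was present in 58.4 to 76.8% with CpG-STAT3ASO and 81.5 to 96.1% without it, and those groups did not overlap. Rrm2 per Mki67 differed by 0.14 on the log2 scale (exact two-sided permutation p = 0.686), while Birc5 per Mki67 differed by -1.45 and Birc5 per Rrm2 by -1.59 (exact p = 0.0286 each, adjusted p = 0.0343 over 12 ratio tests, lower in 4 of 4 sections). With 20 to 39 Mki67 molecules per small bin the values were 0.35 (exact p = 0.171, adjusted p = 0.187), -1.26 and -1.61 (exact p = 0.0286 each). The higher Rrm2 per Mki67 of the larger bins was therefore not detected at this scale, and the lower Birc5 was. Mki67 chose these small bins and is also the denominator, and the choice by a random part of Mki67 was not repeated here. Mean Mki67 in bins with 10 to 19 was 13.3 to 13.6 with CpG-STAT3ASO and 14.1 to 14.4 without it. How far the choice set the ratios over Mki67 was not tested. Birc5 per Rrm2 does not hold Mki67. The small bins numbered 181 to 719 per section with CpG-STAT3ASO and 2494 to 3571 without it at 10 to 19 Mki67 molecules.

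**Figure D5:**
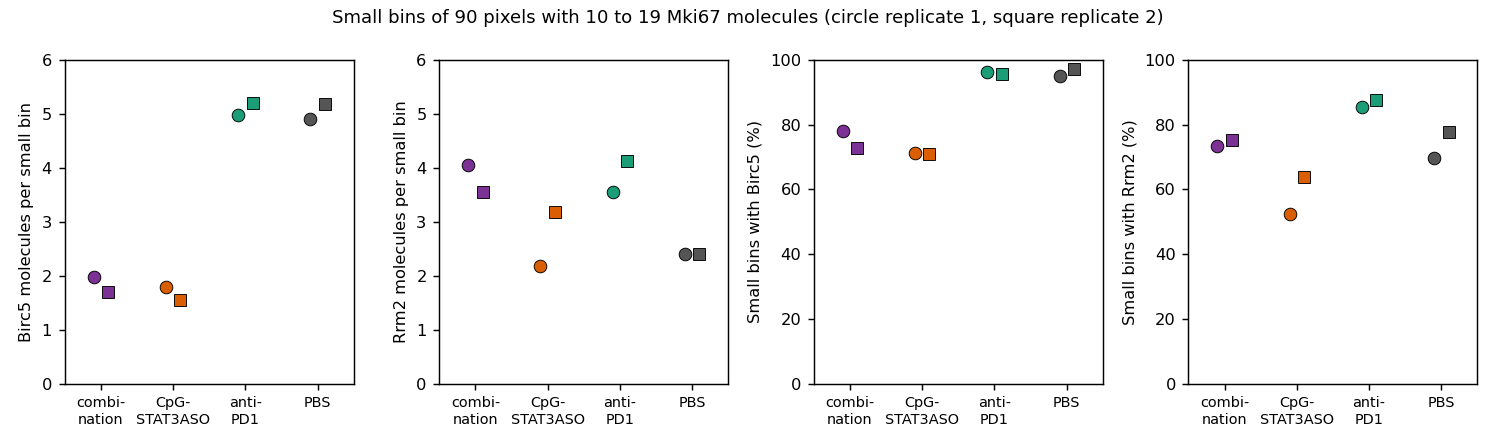
Birc5 and Rrm2 in bins of 90 pixels with 10 to 19 Mki67 molecules, as mean molecules per bin and as the percentage of bins with at least 1 molecule, with a circle for replicate 1 and a square for replicate 2. Birc5 separates the combination and CpG-STAT3ASO sections (1.55 to 1.98 molecules) from the anti-PD1 and PBS sections (4.91 to 5.21), while mean Rrm2 overlaps (2.18 to 4.04 against 2.40 to 4.13), as does the percentage of bins with Rrm2 (52.5 to 75.1% against 69.6 to 87.6%).

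The 3 genes followed each other from bin to bin in every section, more closely without CpG-STAT3ASO. Spearman's rho over the tissue bins of a section was 0.576 to 0.748 with it and 0.915 to 0.936 without it for Birc5 and Mki67, 0.497 to 0.716 and 0.830 to 0.896 for Rrm2 and Mki67, and 0.442 to 0.687 and 0.834 to 0.902 for Birc5 and Rrm2. Bins of a section share its depth, and counts per bin were far lower with CpG-STAT3ASO, so these are descriptions. By mean rho over the 8 sections the genes outside the 3 closest to Mki67 were Irf8, a myeloid and B cell transcription factor (0.700), the MHC class II chaperone gene Cd74 (0.699) and the cytokine gene Tgfb1 (0.695). Those closest to Birc5 were Tgfb1 (0.623), Irf8 (0.622) and Gpnmb (0.617), and those closest to Rrm2 were Gpnmb (0.635), Tgfb1 (0.619) and Cd74 (0.606). Ranked by Pearson's correlation of log2 CPM over the 8 sections, Gpnmb, the telomerase gene Tert and Stat3 came nearest to both Mki67 and Birc5, and Tert, the CD11c gene Itgax and Gpnmb nearest to Rrm2. The sections form 2 clusters by CpG-STAT3ASO, so no pooled coefficient is given.

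Stat3, the target of the antisense agent, had fewer molecules in every section given CpG-STAT3ASO at matched Mki67 of 40 or more, but not below. In proliferating bins Stat3 did not pass the test over Mki67 and was called lower over Rrm2. Bins with 40 to 79 Mki67 molecules held 32.6 to 65.4 Stat3 molecules with CpG-STAT3ASO and 76.5 to 96.3 without it. With 20 to 39 Mki67 molecules the values overlapped (33.3 to 56.8 against 54.3 to 78.3), as they did in each lower class. Averaged over the same matched classes Stat3 over Mki67 stood at -1.10 and just missed the threshold (adjusted p = 0.0545, limma), and summed over all proliferating bins it stood at -0.49 (adjusted p = 0.267). Stat3 over Rrm2 was lower over all proliferating bins (-1.44, SE 0.321, adjusted p = 0.0111, limma) and over the matched classes (-1.79, SE 0.342, adjusted p = 0.00738). Over whole sections Stat3 over Rrm2 stood at 0.33 (adjusted p = 0.535) and did not pass. Stat3 over Mki67 was called higher there (1.70, adjusted p = 0.00578, limma), as were 91.9% of genes. By CPM Stat3 stood at -0.72 (adjusted p = 0.189, limma) and did not pass. Of 15 genes listed as STAT3 and its targets, 6 were measured. Per Mki67 in proliferating bins Birc5 was lower, the cytokine gene Il6 was higher (3.03, adjusted p = 0.00255) and 4 did not pass, namely Stat3, Il10 (1.51), the angiogenic factor gene Vegfa (0.0024) and the PD-L1 gene Cd274 (1.04). Of all 97 genes, 2.06% were called lower and 46.4% higher there, and the list's median was 0.52, beside 1.41 for all genes. Over Rrm2, where 8.25% of genes were called lower and 27.8% higher, Vegfa was lower too (-0.96, adjusted p = 0.0289, limma). Mki67 itself was as low over Rrm2 (-0.96, adjusted p = 0.0369, limma). Il6 was still called higher (2.07, adjusted p = 0.0218, limma), and Il10 (0.55) and Cd274 (0.079) did not pass. Over the matched classes Vegfa over Rrm2 stayed called (-1.47, adjusted p = 0.0114, limma), while Mki67 (-0.70, adjusted p = 0.184) and Il6 (0.53, adjusted p = 0.610) did not pass.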

How the data were processed

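The files deposited by the authors list the x, y and plane position and the target name of each called molecule, from Resolve single-molecule FISH per the labels. The sources used here do not give the settings of spot calling, and the submitters' processing notes name Seurat 4.2.0 with no role. Molecules were tallied here (Python 3.11.15, numpy 2.4.6, pandas 2.3.3, scipy 1.17.1) per section and per bin, leaving out 28 targets named FP. Groups follow the sample titles. The 3 genes, the gene lists and the tests were chosen with earlier results of these data known. Depth is the molecules per section given above, and p values and SDs cover the spread between sections.

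Values were fitted with limma 3.58.1 in R 4.3.3 (lmFit, eBayes with trend, 4 group means) over all genes averaging 10 or more molecules in a section or, for bins, in the summed area, as log2(CPM + 1) or as log2 of the ratio to Mki67 or Rrm2 with 0.5 added to both counts. Adjusted p values are Benjamini-Hochberg values, two-sided, with a threshold of 0.05. Average effects are those of CpG-STAT3ASO over sections with and without anti-PD1. Means of 4 against 4 sections were compared by exact permutation. Named genes are the 3 members, Stat3, for each member the 3 nearest genes by either correlation, and measured members of the STAT3, T cell and macrophage lists. Ly6a was named as it stands in a count of 3. Promoters came from a RefSeq table by symbol, and all 3 matched. Replicate numbers of the labels were taken not to pair the sections, since pairing would need all 6 correlations of deviations between groups over 0.1, and 3 were 0.253 to 0.589 while the other 3 were -0.525 to -0.311.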

Additional observations from a re-analysis of the deposited data

How the results depend on the processing

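The ratio of Birc5 to Rrm2 stayed called with CpG-STAT3ASO on average under all 14 alternatives over whole sections (-2.10 to -1.69) and all 23 in proliferating bins (-2.74 to -1.68). Among these 23, bins chosen by at least 10 Rrm2 favour high Rrm2, the denominator, so that setting is no separate support. Birc5 over Mki67 in proliferating bins stayed called under 22 of 23 (-1.21 to -0.90 or, with bins chosen by Rrm2, -0.74). The exception was bins chosen by at least 10 Birc5 (-0.49). Over whole sections the same ratio passed with the mean false-positive count subtracted (-0.65, adjusted p = 0.0205, limma), with the mean of bins without Mki67 subtracted (-0.91, adjusted p = 0.0250) and in the lower planes (-0.65, adjusted p = 0.0306). It also passed without combination replicate 1 (-0.62, adjusted p = 0.0439), in a range of -0.65 to -0.56 without a section. Rrm2 over Mki67 no longer passed over whole sections in the upper planes (1.17, adjusted p = 0.0760). It no longer passed in proliferating bins with the mean of bins without Mki67 subtracted (0.93, adjusted p = 0.0666), with at least 80 Mki67 molecules (0.69, adjusted p = 0.0536), over matched Mki67 classes (0.70) or without CpG-STAT3ASO replicate 2 (0.81, adjusted p = 0.0618). Why these calls moved was not tested. Without a section it ranged from 0.81 to 1.10, and whole-section Rrm2 ranged from -1.26 to -0.84.

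Of the genes over whole sections, 43 were called by share (81.4% higher), 29 per tissue bin (6.9% higher) and 33 with median-of-ratios factors. The combination against CpG-STAT3ASO lay near 0 and changed sign with the setting, never past the test. Birc5 over Mki67 stood at -0.00042 with bins chosen by a random part of Mki67, -0.027 with bins chosen by Rrm2 and -0.066 without bins holding Cd3d or Cd8a, and ranged from -0.044 to 0.084 without a section. Rrm2 over Mki67 stood at -0.16 in 720-pixel bins, -0.099 with at least 80 Mki67, -0.054 with the random choice, -0.025 in the top 10% of bins by Mki67, -0.31 and -0.32 with bins chosen by Rrm2 and by Birc5, and ranged from -0.26 to 0.32 without a section. Birc5 over Rrm2 stood at 0.20, 0.10, 0.053, 0.055, 0.29 and 0.39 under the same settings and ranged from -0.36 to 0.33 without a section.

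With the replicate number as a block, Birc5 over Mki67 (-1.08, adjusted p = 0.0130), Rrm2 over Mki67 (0.96, adjusted p = 0.0297) and Birc5 over Rrm2 (-2.03, adjusted p = 0.00491) stayed called in proliferating bins, 4 calls over Mki67 against PBS were lost (adjusted p = 0.0668 to 0.0749), and 41 genes were called over whole sections. Few proliferating bins and few molecules per bin limit the sections given CpG-STAT3ASO, where 79 to 358 bins held 9.42 to 10.6 Birc5 molecules each.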
